A study of Mus musculus with 24 samples.

Results

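To follow what happens to cortical cells when they leave the embryo, RNA from the dorsal telencephalon of 3 control mouse embryos at E14.5 was compared with RNA from cells of the same 3 embryos after 12 hours in culture. These 6 libraries, of the 24 in the series, were chosen by their labels: embryos numbered 3, 4 and 5, each with 1 uncultured cortex library and 1 library of 12-hour culture. That a cortex and a culture come from the same embryo is read from the number they share. All 3 embryos were *Cep135*(+/+) and carried no engineered deletion. The study does not describe the matings that gave them and names no drug treatment. They share the prefix of their labels with the mutant embryos 1, 2 and 6. No strain is named in the labels. For the cultures, neocortices of the dorsal telencephalon were digested with papain and DNase I, and the cells were kept in suspension in DMEM/F-12 with N2, B27, heparin, EGF and FGF2, where they begin to form neurospheres. Libraries of *Cep135*(Δ8/Δ8) embryos 1, 2 and 6 (3 cortices and 3 cultures of 12 hours) and of the same control cells after 24 hours are used below for comparison.

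The dorsal telencephalon at E14.5 holds radial glia, which divide at the ventricle and receive Notch signals from their neighbours, intermediate progenitors that arise from them, and young projection neurons that migrate outward. It also holds blood vessels with circulating red cells, microglia and a cover of meninges. Neurosphere culture selects for cells that divide in response to EGF and FGF2, receptor ligands that act through the ERK pathway. The groups differ in dissociation, time outside the embryo, growth factors, medium and cell composition together, and the design cannot tell these apart. In bulk RNA, fewer cells of a type and less RNA per cell cannot be told apart either.

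Values are normalized read counts, the reads of each gene divided by 1 size factor per library. Reads were primed at the 3′ ends of transcripts. Fold changes are differences on the scale of log2(value + 1), as 12-hour culture minus cortex, and p-values come from limma with the embryo as a block, adjusted by Benjamini-Hochberg over all genes tested. With this block, they set the mean change against the spread of the 3 differences between culture and cortex, 1 per embryo. limma draws this spread toward a trend fitted over all genes tested. The p-values and standard errors therefore also carry the spread of other genes. Most genes named below follow the naming rule of the methods; *Asns*, *Chac1*, *Slc7a11*, *Fdps*, *Npas4*, *Etv4*, *Dusp6*, *Fabp7*, *Emx1*, *Nes*, *Notch3*, *Cdh5*, *Tek*, *Tie1*, *C1qa*, *Myl12a*, *Top2a*, *Mt1* at 24 hours and members named because they were the exceptions of a list were chosen after their values were seen. Embryos 3, 4 and 5 are named in this order wherever 3 values are given.

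The cortex libraries held 6048513 to 9647570 reads on genes and the 12-hour libraries 5248040 to 9635546. *Gm42418*, a gene with ribosomal RNA sequence, took 9.78% to 14.8% of reads in the cortices and 18.9%, 34.8% and 10.7% in the cultures, and mitochondrial genes took 5.10% to 5.88% and 4.13% to 4.89%. The part of these shares in the differences between embryos was not tested beyond the rescaling given below. Across genes, Pearson's r of log2 values was 0.956 to 0.975 between cortices, 0.916 to 0.942 between cultures and 0.848 to 0.921 between a culture and a cortex. *Cep135* itself read 171, 176 and 271 in the cortices and 291, 336 and 201 in the cultures, and the difference did not pass the test (adjusted p = 0.322). In mutants it read 224, 173 and 283 in cortices and 260, 213 and 262 in cultures, so these 3′ reads do not separate the genotypes.

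In 12 hours 794 of 13566 genes rose (5.85%) and 892 fell (6.58%), at an adjusted p under 0.05 from limma. These shares are the background for every count of list members given below. Of the genes that rose, 422 did so by a fold of at least 2 and 125 by at least 4. Of those that fell, 695 did so by a fold of at least 2 and 336 by at least 4. The median log2 fold change was 1.04 among genes that rose, -1.55 among those that fell and -0.04 over all genes tested. The cortex and culture values did not overlap for 773 of the genes that rose and 874 of those that fell. These counts were taken only among genes that had passed. They describe the calls and are no further support for them. The 3 embryos did not change to the same extent. Embryo 3 had 1518 genes at least 2-fold higher and 2058 at least 2-fold lower in culture, embryo 4 had 1682 and 2331, and embryo 5 had 795 and 1426. The counts of calls moved with the embryo left out: 267 rose and 444 fell without embryo 3, 330 and 577 without embryo 4, and 2133 and 2167 without embryo 5. When libraries were instead scaled to their total without *Gm42418* and mitochondrial genes, 643 rose and 1177 fell, so that 35.3% of calls were higher in culture, against 47.1% with the deposited scaling.

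**Figure D1:**
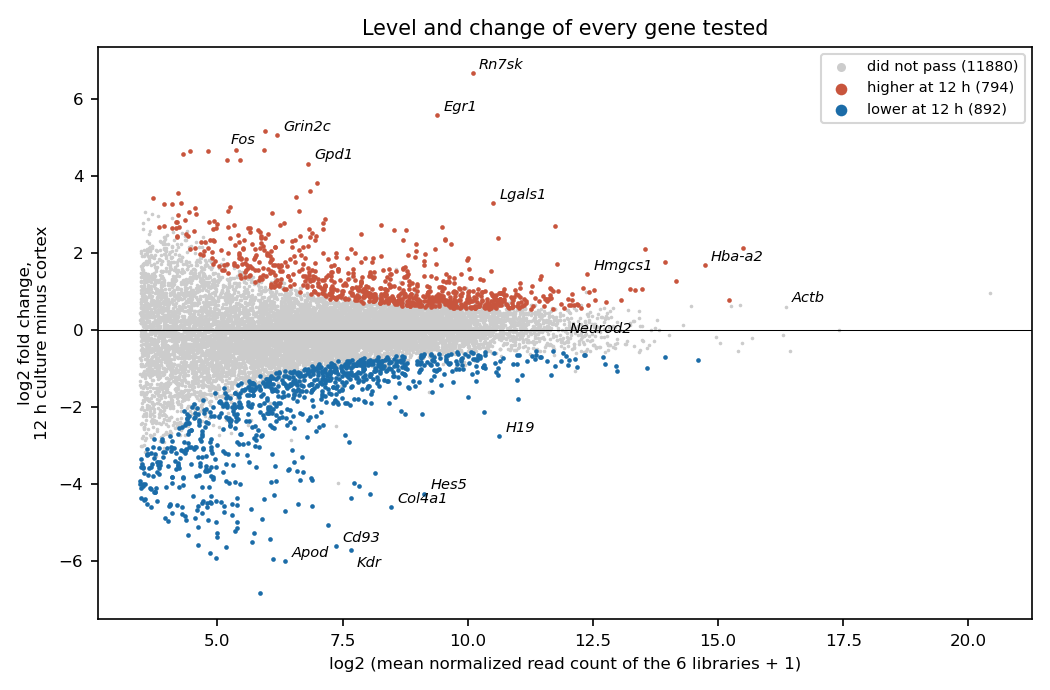
Each point is 1 of the 13566 genes tested, with the log2 mean level over the 6 libraries on the x axis and the log2 fold change (12-hour culture minus cortex) on the y axis. The 794 genes that rose are red and the 892 that fell are blue; *Rn7sk* and *Egr1* are the uppermost and *Hes5*, *Kdr* and *Apod* lie far below 0.

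The gene with the smallest p was *Rn7sk* (ENSMUSG00000065037, chromosome 9 of GRCm38, 78175303 to 78175633, minus strand), the 7SK small nuclear RNA that holds the elongation factor P-TEFb in an inactive complex. It is not normally polyadenylated and has near-identical copies in the genome, so its level in oligo(dT)-primed libraries is uncertain. Its normalized read count was 29.4, 14.52 and 17.4 in the cortices and 2500, 2541 and 1461 in the cultures. The groups lie far apart, and limma gave a difference of 6.68 on the log2 scale (standard error 0.26, adjusted p = 9.73e-08). Next came *Egr1*, followed by *Lgals1* (ENSMUSG00000068220, chromosome 15, 78926725 to 78930465, plus strand), which encodes the galactoside-binding protein galectin-1. *Lgals1* read 246, 268 and 293 in the cortices and 2739, 2758 and 2431 in the cultures, with a log2 fold change of 3.29 (standard error 0.18, adjusted p = 1.07e-06). *Gpd1*, a glycerol-3-phosphate dehydrogenase, went from 7.06, 11.6 and 10.5 to 175, 269 and 197 (log2 fold change 4.32, adjusted p = 4.34e-05). *Slc5a3*, the sodium/myo-inositol cotransporter that cells raise under osmotic stress, went from 180, 192 and 140 to 801, 1125 and 576 (2.24, adjusted p = 6.46e-05). Among the largest increases were those of *F2rl1*, which encodes a receptor activated by proteases (1.18, 2.18 and 1.74 to 137, 189 and 33.4), and of *Grin2c*, an NMDA receptor subunit gene (4.71, 3.63 and 0.872 to 99.1, 71.6 and 252). Both start from a handful of reads, and embryo 5 stands below the others for *F2rl1* and above them for *Grin2c*.

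**Figure D2:**
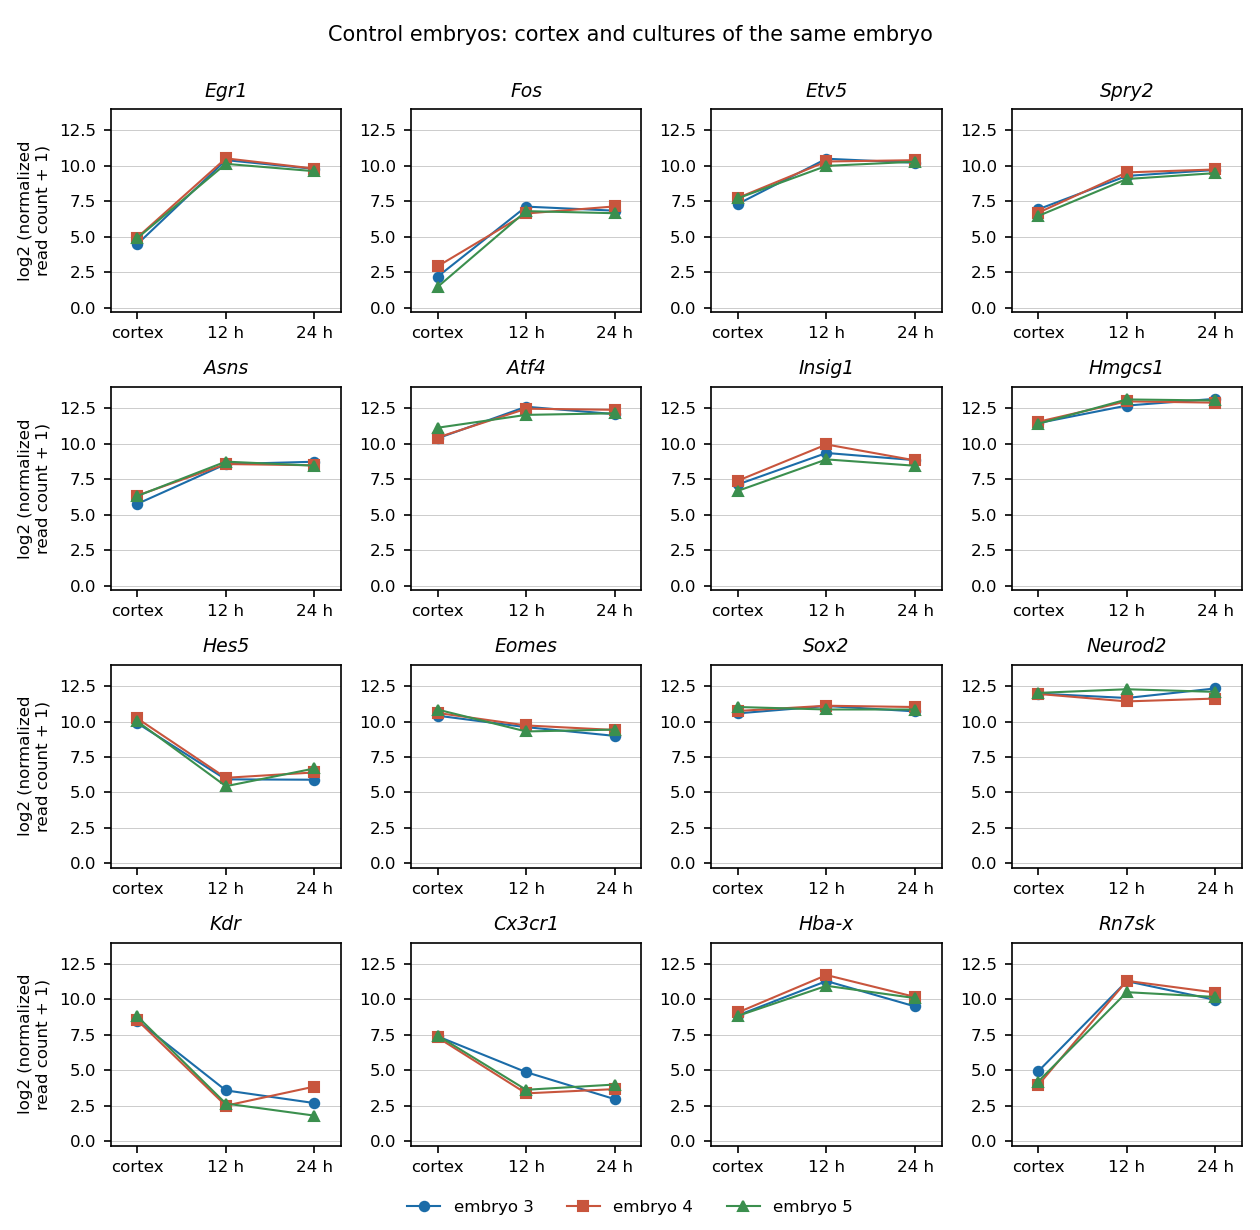
Log2 of the normalized read count plus 1 (y axis) of 16 genes in the cortex, the 12-hour culture and the 24-hour culture, with 1 line per control embryo. Embryos 3, 4 and 5 move together for genes such as *Egr1*, *Etv5*, *Insig1*, *Hes5* and *Kdr*, while *Sox2* and *Neurod2* stay within a narrow band.

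Immediate early genes, which cells transcribe within minutes of a stimulus without new protein synthesis, were among the clearest increases. Of 27 tested, 13 rose, where 5.85% of all genes did, 1 fell and 13 did not pass, and their median log2 fold change was 1.09. *Egr1* (ENSMUSG00000038418) encodes a zinc finger transcription factor downstream of ERK and read 21.2, 29.8 and 28.8 in the cortices and 1353, 1474 and 1127 in the cultures. Every culture was well above every cortex, and the difference was 5.59 on the log2 scale (standard error 0.24, adjusted p = 1.48e-07). *Fos*, which encodes a subunit of the AP-1 factor, went from 3.53, 6.53 and 1.74 to 138, 98.6 and 111 (4.67, standard error 0.54, adjusted p = 0.000365). *Npas4*, a gene known for its response to neuronal activity, had 2 reads in all cortices and 100 in all cultures, a ratio of 60.2 with a 95% counting interval of 16.2 to 504. The member that fell was *Klf2*, a factor of the flow response in endothelium, at 51.8, 34.8 and 44.5 in the cortices and 15.7, 2.35 and 17.5 in the cultures. Its adjusted p was 0.0358, and it was 0.0955 without embryo 3 and 0.142 without embryo 4.

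The list of FGF and EGF feedback genes holds genes that ERK signalling switches on, among them inhibitors that limit it. They rose in 11 of 19 cases, with a median of 1.06, and the other 8 did not pass. Which signal lay behind the rise was not tested. *Etv5* (ENSMUSG00000013089, chromosome 16, 22381309 to 22439719, minus strand) encodes an ETS factor induced by FGF. It read 158, 213 and 208 in the cortices and 1447, 1265 and 1020 in the cultures (log2 fold change 2.68, standard error 0.21, adjusted p = 2.42e-05). *Spry2* and *Spry4*, whose products inhibit receptor tyrosine kinase signalling, moved likewise. *Spry2* went from 121, 102 and 87.2 to 624, 742 and 537 (2.60, adjusted p = 3.44e-05) and *Spry4* from 8.23, 8.71 and 3.49 to 62.9, 55.2 and 83.5 (3.19, adjusted p = 0.00395). *Dusp5*, a nuclear ERK phosphatase gene, went from 18.8, 12.3 and 17.4 to 220, 281 and 139 (3.60, adjusted p = 0.000196). *Etv4* and *Dusp6* had log2 fold changes of 3.11 and 2.74. Not every feedback gene passed: *Spry1* read 9.41, 10.2 and 6.97 in the cortices and 33, 22.3 and 14.4 in the cultures (adjusted p = 0.200).

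Genes of the integrated stress response, in which phosphorylation of eIF2α raises translation of the factor ATF4 and with it genes of amino acid synthesis, transport and tRNA charging, rose in 18 of 32 cases. Their median was 0.90, and the other 14 did not pass. *Atf4* itself read 1329, 1382 and 2233 in the cortices and 6239, 5662 and 4188 in the cultures, without overlap (1.72, standard error 0.23, adjusted p = 0.000943). *Ddit3*, which encodes the factor CHOP, went from 155, 175 and 261 to 768, 796 and 337 (1.62, adjusted p = 0.00828). *Asns*, the asparagine synthetase gene, read 52.9, 79.8 and 78.5 and then 376, 378 and 425, the 3 cultures close together (2.49, standard error 0.24, adjusted p = 0.000111). *Chac1*, whose product breaks down glutathione, went from 17.6, 10.2 and 12.2 to 159, 77.5 and 285 (3.45, adjusted p = 0.000499). *Slc7a3*, a transporter of cationic amino acids, went from 1.18, 2.90 and 1.74 to 73.9, 41.1 and 122 (4.68, adjusted p = 0.00143). *Trib3*, a pseudokinase gene downstream of ATF4, had 3 reads over the cortices and 112 over the cultures, a ratio of 44.9 with a 95% counting interval of 15.0 to 221. The cystine transporter gene *Slc7a11* lay lower in every culture, at 25.2, 14.1 and 12.9 against 43.5, 37.0 and 25.3, and did not pass (-1.01, adjusted p = 0.187).

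ATF4 binds with C/EBP partners at an element read as TGATGNAA, where N is any base. In promoter windows from 250 bases before to 50 after the start (RefSeq, GRCm38.p6, either strand), it occurred in 9 of the 29 members with a window, 31%, and in 4.51% of the windows of 27025 genes. A match describes the letters and not a bound site. The 4 windows below are shown because they put the element beside members that rose (*Asns*, *Chac1* and *Trib3*) and 1 that did not pass (*Slc7a11*), so a match went with different outcomes. Each reads 5′ to 3′ on the gene's strand, with the element in capitals on either strand. *Asns* lies at chr6:7693160-7693459 (minus strand), *Chac1* at chr2:119350992-119351291 (plus strand), *Trib3* at chr2:152344011-152344310 (minus strand) and *Slc7a11* at chr3:50443564-50443863 (minus strand). The match begins 23 bases before the start in *Asns* and 193 bases before it in *Chac1*, falls 15 to 22 bases after it in *Trib3*, and occurs at 2 places in *Slc7a11*.
Asns: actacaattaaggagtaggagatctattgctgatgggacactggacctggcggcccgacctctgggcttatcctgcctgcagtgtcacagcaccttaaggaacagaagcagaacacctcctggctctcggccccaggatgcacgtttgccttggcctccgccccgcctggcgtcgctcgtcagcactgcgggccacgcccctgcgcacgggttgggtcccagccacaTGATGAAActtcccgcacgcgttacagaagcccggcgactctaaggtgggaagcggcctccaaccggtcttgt
Chac1: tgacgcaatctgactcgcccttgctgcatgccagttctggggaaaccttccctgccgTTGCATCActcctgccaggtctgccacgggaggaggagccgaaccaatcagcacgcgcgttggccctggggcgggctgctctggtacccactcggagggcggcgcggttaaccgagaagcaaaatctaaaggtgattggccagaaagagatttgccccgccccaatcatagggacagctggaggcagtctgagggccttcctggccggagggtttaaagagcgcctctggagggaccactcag
Trib3: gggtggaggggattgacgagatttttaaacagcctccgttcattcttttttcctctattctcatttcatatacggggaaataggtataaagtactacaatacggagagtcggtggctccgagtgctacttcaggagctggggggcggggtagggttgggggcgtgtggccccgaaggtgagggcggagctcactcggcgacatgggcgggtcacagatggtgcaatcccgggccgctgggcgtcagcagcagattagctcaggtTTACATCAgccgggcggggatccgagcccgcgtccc
Slc7a11: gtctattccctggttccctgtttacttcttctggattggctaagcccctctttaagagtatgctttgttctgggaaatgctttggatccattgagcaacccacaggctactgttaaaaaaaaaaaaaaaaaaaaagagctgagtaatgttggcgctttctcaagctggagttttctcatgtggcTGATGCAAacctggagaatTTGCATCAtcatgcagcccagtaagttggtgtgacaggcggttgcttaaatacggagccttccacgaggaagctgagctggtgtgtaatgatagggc

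Genes of cholesterol synthesis and uptake rose almost throughout. Of 25 members tested, 22 rose and 3 did not pass (*Ebp* and *Tm7sf2* among them), with a median of 1.39 and all 25 fold changes above 0. These genes are targets of SREBP2, a factor freed from the endoplasmic reticulum when sterol is low. *Insig1* (ENSMUSG00000045294, chromosome 5, 28071363 to 28078662, plus strand) encodes a protein that retains SREBP in the membrane. It read 139, 167 and 101 in the cortices and 650, 985 and 474 in the cultures, without overlap (2.33, standard error 0.20, adjusted p = 5.77e-05). *Hmgcs1*, an enzyme gene early in the pathway, went from 2800, 2985 and 2714 to 6607, 8106 and 8903 (1.46, adjusted p = 0.000397). *Fdps*, further down the pathway, had a log2 fold change of 2.24. Leaving out any 1 embryo left 20 to 22 members higher.

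A sterol regulatory element, searched as TCACCCCAC on either strand, occurred in 1 of the 17 members with a promoter window (5.88%) and in 0.614% of all windows. That member was *Hmgcs1*, at chr13:119690101-119690400 (plus strand), and its window is shown because it is the match of this list. The element begins 137 bases before the start. The cyclic AMP response element TGACGTCA occurred in 3 of 25 immediate early genes (12.0%) and in 2.03% of all windows.
Hmgcs1: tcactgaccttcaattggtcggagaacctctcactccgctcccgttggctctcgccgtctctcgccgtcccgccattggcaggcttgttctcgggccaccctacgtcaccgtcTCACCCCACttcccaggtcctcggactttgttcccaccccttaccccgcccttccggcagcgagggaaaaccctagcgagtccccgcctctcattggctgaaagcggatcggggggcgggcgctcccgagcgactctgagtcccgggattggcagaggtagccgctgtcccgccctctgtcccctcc

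Targets of p53, a factor that arrests or kills damaged cells, moved in part. Of 18 tested, 6 rose and 12 did not pass, with a median of 0.76. *Cdkn1a*, which encodes the cell cycle inhibitor p21, read 358, 345 and 222 in the cortices and 950, 798 and 695 in the cultures, so every culture was above every cortex (1.42, standard error 0.19, adjusted p = 0.000822). *Mdm2*, which encodes the ubiquitin ligase of p53, went from 328, 396 and 439 to 785, 636 and 732 (0.89, adjusted p = 0.0130). Without embryo 3 the adjusted p of *Mdm2* was 0.199 and 2 members of the list passed in place of 6.

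None of 18 genes of endoplasmic reticulum chaperones and the unfolded protein response passed in limma, where 2 were lower at an unadjusted p under 0.05, and edgeR and DESeq2 called 0. Without embryo 5, 3 were higher and 6 lower. *Hspa5*, the chaperone BiP that marks this response, read 2927, 2893 and 3355 in the cortices and 3012, 3248 and 3166 in the cultures. Among 18 cytosolic heat shock genes 2 rose and 1 fell, counts near the shares of all genes (5.85% and 6.58%). Of these members 1, 0 and 7 were higher without embryos 3, 4 and 5. The heat shock element core GAANNTTC was in the promoter window of 11 of 17 members (64.7%, against 9.04% of all windows). *Bag3* went from 20, 18.9 and 20.1 to 39.3, 146 and 42.5 (1.62, adjusted p = 0.0469), with embryo 4 far above the others and an adjusted p of 0.408 without it. *Serpinh1*, a chaperone of collagen, fell from 234, 228 and 150 to 28.3, 56.4 and 47.1 (-2.22, adjusted p = 0.00161). Of 16 NRF2 target and glutathione genes, *Me1* rose (1.11, adjusted p = 0.0321), and it did not pass without embryo 3 (0.0650) or embryo 4 (0.269), and without embryo 5 there were 3 higher and 4 lower. Of 6 genes of metallothioneins, which bind zinc, and of zinc transport 2 fell, the metallothionein genes *Mt2* and *Mt3*, with *Mt3* at 76.5, 66.8 and 221 in the cortices and 18.9, 15.3 and 25.1 in the cultures (-2.37, adjusted p = 0.00331), and 1 member was lower without embryo 3 or embryo 4. Of 7 interferon and antigen presentation genes *B2m* alone passed (-0.96, adjusted p = 0.0452), and it did not without embryo 3 (0.355) or embryo 4 (0.128).

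Glycolysis genes split. Of 21 tested, 2 rose and 6 fell, with a median of -0.16. *Hk2* and *Pfkp*, isoforms of the enzymes that commit glucose to glycolysis, went from 114, 147 and 179 to 365, 405 and 466 (1.5, adjusted p = 0.00123) and from 178, 150 and 230 to 604, 480 and 449 (1.47, adjusted p = 0.00197). The glucose transporter gene *Slc2a1*, which endothelium of the brain expresses strongly, fell from 201, 185 and 233 to 44.0, 64.6 and 70.6 (-1.79, adjusted p = 0.00204). Of 17 other hypoxia response genes 1 rose and 4 fell, where 5.85% and 6.58% of all genes did. *Egln3*, a prolyl hydroxylase induced by HIF, fell from 41.2, 51.5 and 41.8 to 4.72, 1.17 and 11.4 (-3.09, adjusted p = 0.0142). Fewer calls remained in both lists without embryo 3 or embryo 4: 2 and 3 glycolysis genes were lower, and 2 and 2 hypoxia genes. The hypoxia gene that rose, *Vegfa*, did not pass in limma without embryo 3 (adjusted p = 0.141) or embryo 4 (0.243), which left 0 higher. Without embryo 5, more hypoxia genes were lower (7) and 2 were higher. The hypoxia element core ACGTG was in the windows of 13 of 20 glycolysis genes (65.0%) and 14 of 17 other hypoxia genes (82.4%), against 21.8% of all windows.

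**Figure D3:**
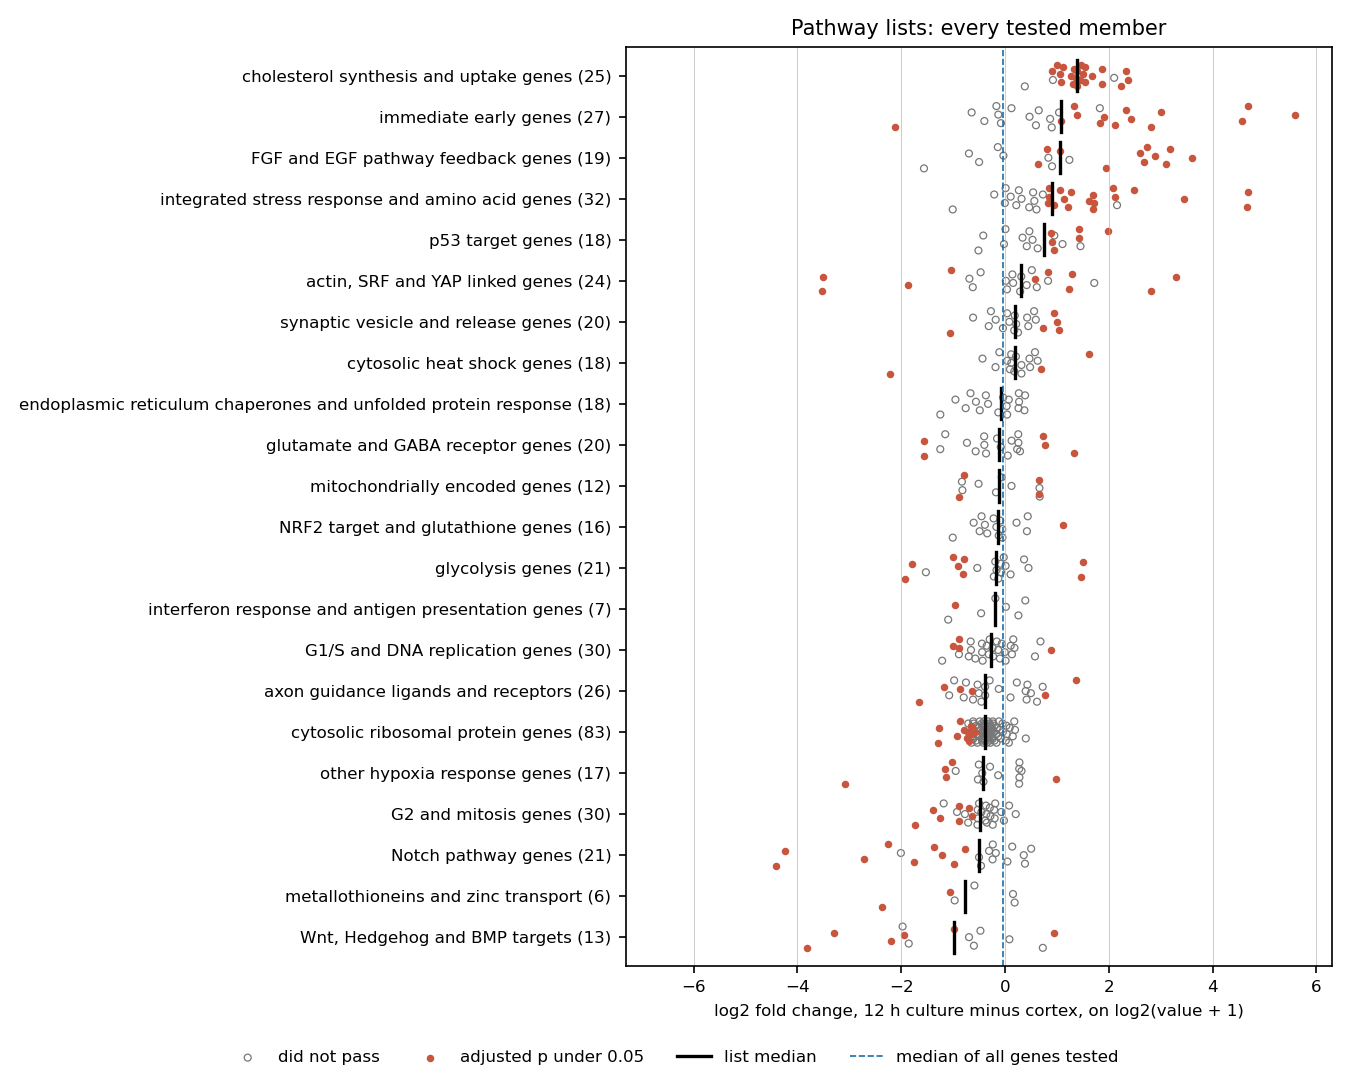
Log2 fold change (12-hour culture minus cortex) of every tested member of the 22 pathway lists, with the number tested in brackets, filled where the adjusted p was under 0.05. The list medians (black bars) run from 1.39 for cholesterol genes to -0.99 for Wnt, Hedgehog and BMP targets, around the median of all genes tested (dashed line, -0.04).

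Of 30 genes of G2 and mitosis 7 fell, where 6.58% of all genes did, and 23 did not pass, with a median of -0.48. *Cdc20*, an activator of the anaphase-promoting complex, went from 649, 633 and 444 to 203, 228 and 223 (-1.38, standard error 0.21, adjusted p = 0.00195), and no culture reached a cortex. *Ccnb2*, a mitotic cyclin, went from 135, 202 and 140 to 50.3, 25.8 and 76.7 (-1.73, adjusted p = 0.0139), with an adjusted p of 0.0747 without embryo 4. Of 30 G1/S and replication genes 3 fell and 1 rose, counts near the shares of all genes (6.58% and 5.85%). The gene that rose was *E2f1* (0.88, adjusted p = 0.0199), with an adjusted p of 0.0829 without embryo 3 and 0.200 without embryo 4. The counts depend on the embryo: 3, 2 and 13 G2 and mitosis genes were lower without embryos 3, 4 and 5, and 0, 0 and 6 G1/S genes.

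Of 21 Notch pathway genes 9 fell and 12 did not pass, with a median of -0.50. *Hes5* (ENSMUSG00000048001, chromosome 4, 154960923 to 154962371, plus strand) encodes the repressor by which Notch keeps radial glia undifferentiated. It read 947, 1198 and 1036 in the cortices and 59.8, 64.6 and 42.5 in the cultures, and the ratio of the means was 19.1 (log2 fold change -4.24, standard error 0.22, adjusted p = 1.07e-06). *Hes1* went from 212, 196 and 155 to 29.9, 31.7 and 60.0 (-2.24, adjusted p = 0.00195). *Heyl*, at 24.7, 13.1 and 25.3 in the cortices, had no read in any culture, which is at least 5.99-fold lower against 3 reads per library. The receptor genes were lower by less for *Notch1* (783, 773 and 781 to 475, 574 and 349, -0.77) and by more for *Notch3* (-2.72), which mural cells express. The summed level of the list was 5988 to 6478 in the cortices and 4096 to 4838 in the cultures. Without embryo 3, 3 members were lower, *Notch1* not among them (adjusted p = 0.131).

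Of 13 targets of Wnt, Hedgehog and BMP signalling 5 fell and 1 rose. *Gli1*, the readout of Hedgehog signalling, went from 21.2, 31.9 and 39.2 to 3.15, 0 and 1.52 (-3.82, adjusted p = 0.0171). *Nkd1*, a feedback inhibitor of Wnt, went from 192, 171 and 167 to 29.9, 2.35 and 55.4 (-3.30, adjusted p = 0.00550), although *Axin2*, another Wnt target, did not pass (-0.69, adjusted p = 0.238). *Id2*, an inhibitor of differentiation factors, rose from 3027, 3234 and 2614 to 5482, 6038 and 5543 (0.95, adjusted p = 0.00407).

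Radial glia markers were lower in 10 of 20 cases and higher in 2, with a median of -0.68. *Fabp7*, a fatty acid binding protein of radial glia, went from 854, 664 and 459 to 112, 163 and 178 (-2.10, adjusted p = 0.000670), and *Emx1*, a transcription factor of the dorsal telencephalon, from 299, 327 and 195 to 94.4, 44.6 and 111 (-1.77, adjusted p = 0.00703). *Nes*, the nestin gene by which neural progenitors are often recognised, went from 1639, 1580 and 1828 to 898, 1005 and 788 (-0.91, adjusted p = 0.00719). *Pax6* went from 429, 409 and 494 to 252, 157 and 251 (-1.04, adjusted p = 0.00912, and 0.0740 without embryo 4). *Sox2*, the general factor of neural progenitors, read 1528, 1719 and 2086 and then 2190, 2220 and 1849, which overlap (0.24, adjusted p = 0.402). The members that rose were *Vim* (2995, 2890 and 2990 to 5666, 5259 and 4750, 0.82) and *Hopx* (1.94). *Vim* did not pass without embryo 3 (adjusted p = 0.116) or embryo 4 (0.104), and *Hopx* did not without embryo 4 (0.0625). The summed level of the list was 24970 to 26630 in the cortices and 18510 to 22910 in the cultures.

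Markers of intermediate progenitors fell in 6 of 14 cases and 1 rose, with a median of -0.86. *Eomes*, which encodes TBR2 and defines these cells, went from 1366, 1560 and 1840 to 779, 847 and 631 without overlap (-1.08, standard error 0.19, adjusted p = 0.00439). *Neurog2*, which starts neurogenesis, went from 544, 507 and 432 to 203, 256 and 239 (-1.08, adjusted p = 0.00660, and 0.0864 without embryo 3). *Rhbdl3* went from 204, 223 and 228 to 39.3, 51.7 and 57.7 (-2.13, adjusted p = 0.000664). The member that rose was *Hes6*, a partner of proneural factors (0.59), and it did not pass without embryo 3 (0.414) or embryo 4 (0.285). Without embryo 5, 10 members were lower.

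Although the labels call the cultures cortical neural progenitors, the summed level of postmitotic neuron markers was near that of the cortex. Of 20, 2 rose and 1 fell, counts near the shares of all genes (5.85% and 6.58%), with a median of -0.10. Their summed level was 74400 to 77810 in the cortices and 67850 to 76860 in the cultures. *Neurod2*, a factor of projection neurons, read 4021, 3959 and 4156 in the cortices and 3244, 2744 and 4971 in the cultures, with embryo 5 above its cortex and the others below. Without embryo 5, 8 markers were lower. *Nefm*, a neurofilament gene, rose from 448, 346 and 627 to 1235, 1005 and 1047 (1.25, adjusted p = 0.00276). Of 13 deep-layer and subplate markers 1 rose and 3 fell, where 5.85% and 6.58% of all genes did. The increase was that of *Tle4* (0.63), which did not pass without embryo 3 (0.137) or embryo 4 (0.274). Without embryos 4 and 5, 1 and 5 of these markers were lower. *Tbr1* and *Bcl11b*, the factors that define these layers, did not pass (-0.19 and -0.02). Of 10 upper-layer markers 2 rose and 1 fell, and 1, 1 and 4 were higher without embryos 3, 4 and 5, with *Rorb* at 336, 323 and 345 in the cortices and 971, 807 and 890 in the cultures (1.40, adjusted p = 0.000664) and *Unc5d*, a netrin receptor gene, at 219, 232 and 167 and then 77.1, 42.3 and 79.0 (-1.66, adjusted p = 0.00558). Of 8 Cajal-Retzius markers 2 fell, *Reln* (-0.79, adjusted p = 0.0307) and *Calb2* (-1.45, adjusted p = 0.0336). *Reln* did not pass without embryo 3 (0.244) or embryo 4 (0.199), nor did *Calb2* without embryo 3 (0.3).

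Among neuronal gene groups, 4 of 20 synaptic vesicle and release genes rose and 1 fell, and 0, 2 and 7 were higher without embryos 3, 4 and 5, with 0 lower without embryo 4 and 3 lower without embryo 5. *Snap25* went from 172, 160 and 139 to 310, 321 and 312 (log2 fold change 1, adjusted p = 0.0128, and 0.0508 without embryo 3), while *Syt1*, the calcium sensor of release, did not pass (0.22, adjusted p = 0.399). Of 20 glutamate and GABA receptor genes 3 rose and 2 fell, where 5.85% and 6.58% of all genes did. The counts were 1 and 1 without embryo 3 and 1 and 0 without embryo 4, and 6 were lower without embryo 5. *Gria2*, the AMPA receptor subunit that blocks calcium entry, went from 1574, 1357 and 1869 to 3912, 3829 and 4166 (1.32, standard error 0.16, adjusted p = 0.000574). Of 26 axon guidance genes 2 rose and 4 fell, where 5.85% and 6.58% of all genes did, with 1 and 2 without embryo 3, 1 and 2 without embryo 4 and 7 and 10 without embryo 5. *Robo1*, a Slit receptor gene, went from 249, 222 and 254 to 636, 660 and 589 (1.38, adjusted p = 0.00121), and *Nrp1*, a semaphorin and VEGF receptor gene, from 558, 483 and 494 to 272, 195 and 216 (-1.18, adjusted p = 0.00329). Interneuron and ventral telencephalon genes rose in 3 of 13 cases, or 1 without embryo 3 and 6 without embryo 5, where 3 were lower, with *Gad1*, which makes GABA, at 278, 168 and 133 and then 489, 589 and 303 (1.27, adjusted p = 0.00546). *Dlx1* and *Dlx2*, which specify the ventral lineage, were at -0.29 and -0.49 and did not pass.

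Glial lineage genes moved in both directions. *Olig1* and *Olig2*, factors of the oligodendrocyte lineage, went from 30.6, 45.7 and 10.5 to 113, 129 and 137 (2.31, adjusted p = 0.00592) and from 72.9, 93.6 and 65.4 to 327, 444 and 153 (1.86, adjusted p = 0.00166). Surface markers of oligodendrocyte precursors fell, *Pdgfra* from 55.3, 45.0 and 45.3 to 17.3, 3.52 and 3.04 (-2.83, adjusted p = 0.0123) and *Cspg4* from 56.5, 31.2 and 56.7 to 7.87, 1.17 and 5.31 (-3.26, adjusted p = 0.00669). Both are also expressed outside this lineage, *Cspg4* by pericytes and *Pdgfra* by fibroblasts, and the part of those cells in these values was not tested. Of 5 astrocyte markers tested 2 fell (1 without embryo 3), among them *Sparcl1*, from 671, 570 and 1462 to 197, 140 and 216 (-2.18, adjusted p = 0.000181). *Gfap* and *Aqp4* lay below the filter.

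The steepest decreases were of vascular, meningeal and microglial genes. Of 13 endothelial markers tested 12 fell, with a median of -4.91, and *Plvap* did not pass. *Kdr* (ENSMUSG00000062960, chromosome 5, 75932827 to 75978458, minus strand), the main VEGF receptor gene of endothelium, read 365, 372 and 450 in the cortices and 11, 4.70 and 5.31 in the cultures (-5.71, standard error 0.38, adjusted p = 8.50e-06). *Cldn5*, a tight junction gene of the blood-brain barrier, was at 108, 95.1 and 138 in the cortices and had no read in any culture, at least 32.4-fold lower against 3 reads per library. *Cdh5*, *Tek* and *Tie1* had 3, 1 and 2 reads in all cultures against 263, 132 and 204 in all cortices, ratios of 72.9 (95% counting interval 24.7 to 356), 110 (19.4 to 4370) and 84.8 (23.2 to 705). Intervals and limits of this kind cover counting error only. The endothelial list summed to 1491 to 1789 in the cortices and 49.4 to 106 in the cultures.

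All 6 mural markers tested and all 8 of meninges and fibroblasts fell, with medians of -3.80 and -4.03. *Rgs5*, a pericyte gene, went from 259, 323 and 282 to 11, 5.87 and 6.83 (-5.06, adjusted p = 1.87e-05). The collagen genes *Col3a1* and *Col1a2* of fibroblasts went from 547, 428 and 521 to 14.2, 38.8 and 28.8 (-4.25, adjusted p = 2.42e-05) and from 608, 356 and 622 to 37.8, 48.1 and 31.1 (-3.70, adjusted p = 3.07e-05). *Col4a1* and *Col4a2*, neighbouring genes of basement membrane collagen that are transcribed in opposite directions, fell with log2 fold changes of -4.6 and -4.35, from 667, 572 and 798 to 15.7, 36.4 and 33.4 and from 432, 338 and 397 to 17.3, 21.1 and 15.9. *H19*, an imprinted noncoding RNA, went from 2689, 2519 and 3031 to 444, 490 and 306 (-2.75, adjusted p = 1.58e-05). *Apod*, a lipocalin gene, went from 165, 158 and 156 to 3.15, 1.17 and 0.759.

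Microglial genes fell in 10 of 12 cases, with a median of -3.43, and the summed level of the list went from 623 to 720 down to 89.6 to 101. The 1 member with a fold change above 0 (1.135) did not pass, with an unadjusted p under 0.05 in limma. *Csf1r*, the receptor that microglia need to survive, read 96.5, 121 and 125 and then 7.87, 1.17 and 7.59 (-4.38, adjusted p = 0.000674). *Cx3cr1* read 168, 159 and 174 and then 28.3, 9.39 and 11.4 (-3.43, adjusted p = 0.000366). *C1qa*, a complement gene, read 58.8, 52.3 and 52.3 and then 1.57, 2.35 and 6.07. Without embryo 3 the count was 6, as it was with a pseudocount of 0.1. Choroid plexus and cortical hem genes fell in 5 of 10 cases and *Rspo3*, a Wnt agonist made by the hem, rose from 285, 249 and 381 to 942, 768 and 1351 (1.72, adjusted p = 0.000196). *Ttr*, the choroid plexus transport protein gene, went from 4899, 5083 and 3055 to 1919, 3608 and 971 (-1.17, adjusted p = 0.00546). Without embryo 3, 2 members of this list were lower.

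Red cell transcripts went the other way. Of 10 erythroid genes 7 rose, with a median of 1.44, and the summed level was 38300 to 45420 in the cortices and 106700 to 153200 in the cultures. The 1 member with a fold change below 0 (-1.186) did not pass, with an unadjusted p under 0.05 in limma. *Hba-x* (ENSMUSG00000055609, chromosome 11, 32276400 to 32278116, plus strand), the embryonic zeta globin gene, read 469, 541 and 458 and then 2515, 3375 and 1993 (2.39, standard error 0.18, adjusted p = 1.58e-05). *Hbb-y*, the embryonic epsilon globin gene, went from 3403, 4745 and 5407 to 16605, 24711 and 16938 (2.10, adjusted p = 8.32e-05). The adult genes *Hba-a1* and *Hba-a2* share nearly all their sequence, so the split of reads between them is uncertain. At 24 hours the list summed to 45600, 74130 and 62730, closer to the cortices.

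**Figure D4:**
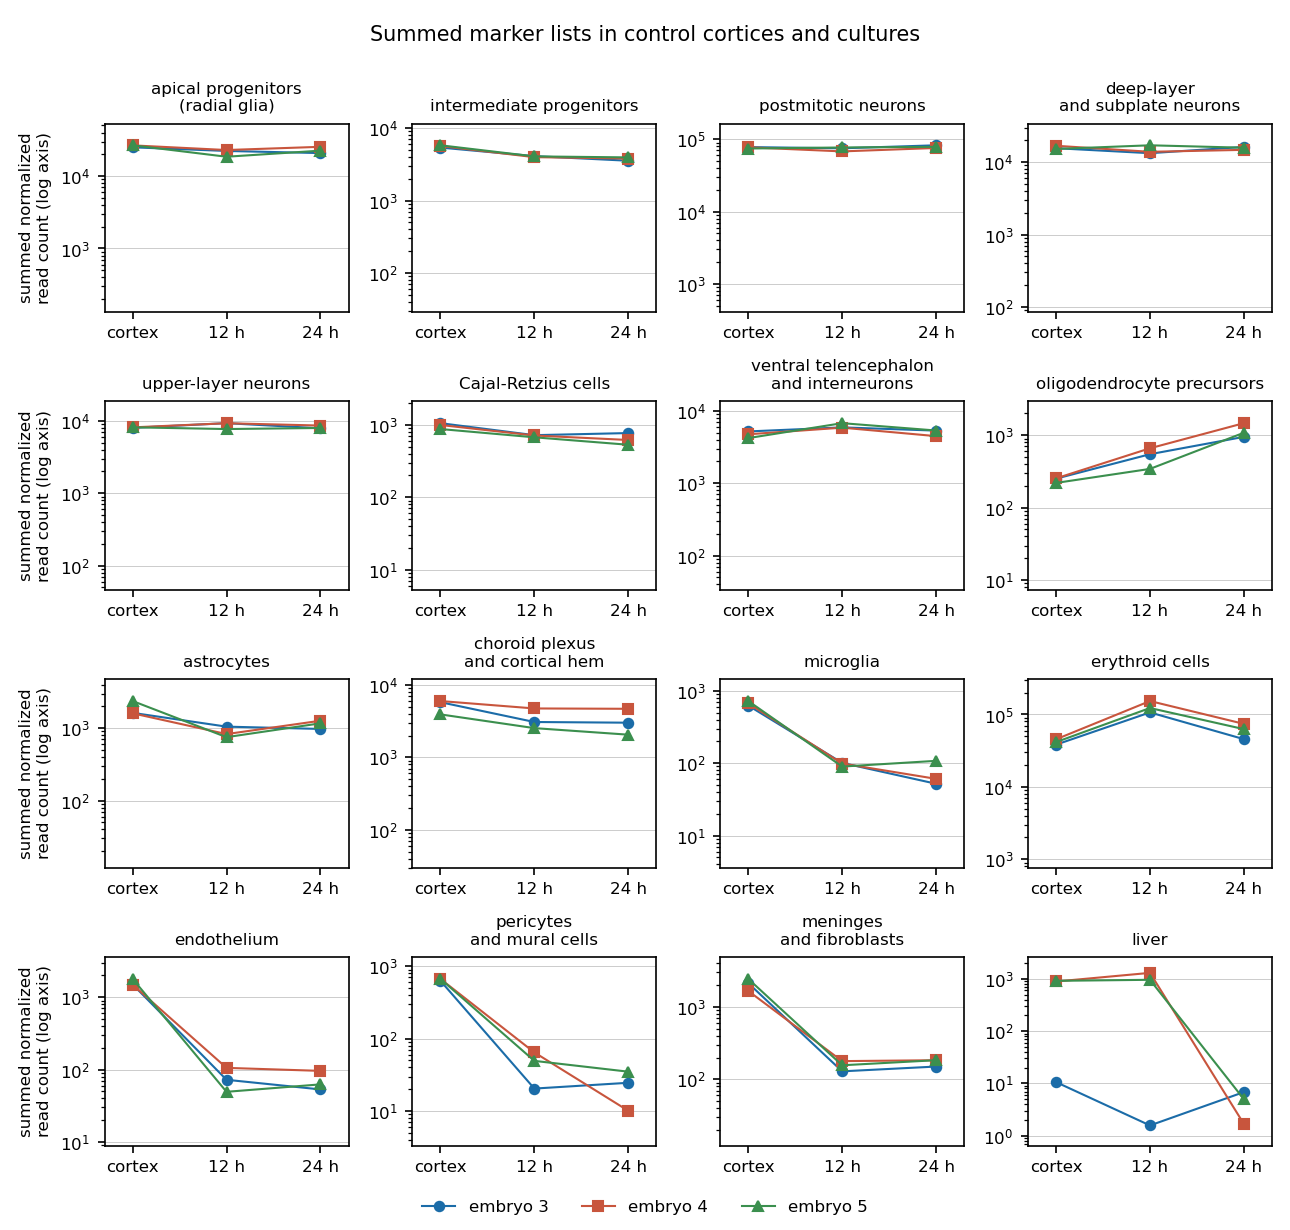
Summed normalized read counts (log y axis, scaled per panel) of 16 cell type marker lists in the cortex, the 12-hour and the 24-hour culture of each control embryo. Endothelial, mural, meningeal and microglial sums fall, erythroid sums rise at 12 hours, and postmitotic neuron sums stay near the cortex. Cajal-Retzius sums are lower and interneuron sums higher at 12 hours in every embryo. Liver transcripts are present in the cortices and 12-hour cultures of embryos 4 and 5.

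Liver transcripts differed between embryos rather than between cortex and culture. The 10 genes of the list summed to 10.6, 889 and 915 in the cortices and to 1.57, 1300 and 958 in the 12-hour cultures, so they were near 0 in embryo 3 and present in both libraries of embryos 4 and 5. None of the 8 tested passed, none had an unadjusted p under 0.05, and edgeR and DESeq2 called 0 of them. At 24 hours the list summed to 6.83, 1.69 and 5.

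Of 83 cytosolic ribosomal protein genes tested 12 fell and 71 did not pass, with a median of -0.38, and 74 had a fold change below 0. Their count of calls moved with the scaling, to 22 under quantile normalization and 25 when libraries were scaled to their total without *Gm42418* and mitochondrial genes, and with the embryo, to 3, 1 and 42 without embryos 3, 4 and 5. Of 12 mitochondrially encoded genes 2 rose and 2 fell, the count of higher genes being 0 without embryo 3 or embryo 4, with *mt-Co3* at 8907, 8326 and 8941 and then 6300, 5994 and 2766 (-0.89, adjusted p = 0.0307). Among 24 genes linked to actin, SRF and YAP 6 rose and 4 fell. *Actb* was higher in every culture (60922, 65575 and 70481 against 112550, 110270 and 81189) and did not pass (0.61, adjusted p = 0.153). *Cd44*, a hyaluronan receptor gene, rose from 2.35, 7.26 and 10.5 to 61.3, 35.2 and 47.1 (2.81, adjusted p = 0.0148, and 0.118 without embryo 3), and *Myl9*, a myosin light chain of contractile cells, fell from 76.5, 54.4 and 68.9 to 6.29, 27 and 0 (-3.51, adjusted p = 0.0171). Without embryo 3, 3 members of this list rose and 1 fell.

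Whether the same change occurs in other embryos was asked of the *Cep135*(Δ8/Δ8) embryos 1, 2 and 6, which share no library with the controls. The labels of embryo 6's cortex disagree on its age, and it was grouped by its title. There 870 of 13617 genes rose (6.39%) and 1112 fell (8.17%) between cortex and 12-hour culture. Without embryo 6, 1367 rose and 1695 fell, without embryo 1, 340 and 512, and without the embryo block 540 and 679. Of the 794 genes that rose in controls, 786 were tested in mutants, 772 had a fold change above 0 and 455 passed, which is 57.3% of the control list and 52.3% of the mutant list. Of the 892 that fell, 877 were tested, 864 had a fold change below 0 and 560 passed, 62.8% of the control list and 50.4% of the mutant list. Across the 13175 genes tested in both, Pearson's r of the fold changes was 0.737, where genes are not independent replicates. *Egr1* changed by 5.05 in mutants, *Etv5* by 2.32, *Insig1* by 2.40, *Hes5* by -4.21 and *Cd93*, an endothelial gene, by -6.13, against 5.59, 2.68, 2.33, -4.24 and -5.61 in controls. Cholesterol genes rose in 23 of 25 cases in mutants, FGF and EGF feedback genes in 12 of 19, integrated stress genes in 17 of 30 and p53 targets in 8 of 18. Endothelial genes fell in 12 of 12 cases there and microglial genes in 11 of 12.

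The opposite call was made for *Ttr* (-1.17 in controls and 1.44 in mutants) and *Myl12a*, a myosin light chain gene (-1.04 and 0.55). Their difference in response did not pass the test of the interaction (adjusted p = 0.169 and 0.483), and the call of *Myl12a* in controls was lost without embryo 3 (0.204) or embryo 4 (0.136). The interaction itself passed for 1 of 13601 genes with a higher response in controls (0.00735%), *Rn7sk*, and for 2 with a lower one (0.0147%), *Alb* and *Serpina1e*. At an unadjusted p under 0.05 there were 765. Without the embryo block 0 passed in either direction, and without embryo 5, 114 and 163 did; without embryo 4 or embryo 6 the count was 0 in both.

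**Figure D5:**
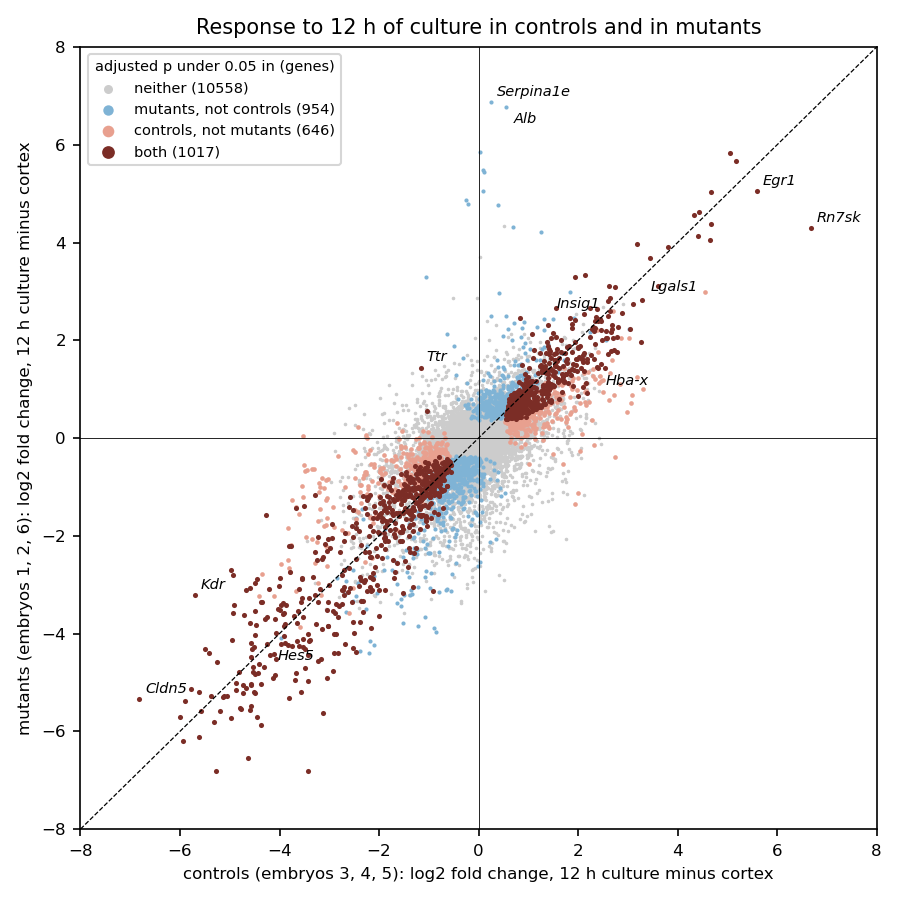
Log2 fold change from cortex to 12-hour culture in controls (x axis) against mutants (y axis) for 13175 genes, coloured by where the adjusted p was under 0.05. The 1017 genes that passed in both share their sign except *Ttr* and *Myl12a*, and *Alb* and *Serpina1e* stand near 0 in controls and above 6 in mutants.

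Between 12 and 24 hours little more passed the test in controls. Of 13294 genes 15 rose (0.113%) and 22 fell (0.165%), and 1012 had an unadjusted p under 0.05. The counts were 184 and 82 without embryo 3, 5 and 14 without embryo 4, 32 and 53 without embryo 5, and 1 and 1 without the embryo block. *Egr1* read 879, 891 and 786 at 24 hours, *Etv5* 1187, 1348 and 1251 and *Hes5* 58.7, 84.3 and 103. None of the 3 passed between 12 and 24 hours, although *Egr1* was lower at 24 hours in every embryo (-0.62, adjusted p = 0.0978). *Olig1* rose further, to 452, 527 and 491 (1.95, adjusted p = 4.81e-05). *Mt1*, a metallothionein gene that did not pass at 12 hours, rose from 145, 189 and 144 to 310, 418 and 393 (1.22, adjusted p = 0.00568). *Rn7sk* fell from its 12-hour level to 999.5, 1434 and 1155 (-0.83, adjusted p = 0.0346). Globin genes fell, *Hba-x* by 1.40 and *Hbb-y* by 1.32 on the log2 scale. *Top2a*, the topoisomerase of dividing cells, fell from 5636, 5481 and 4027 to 2346, 3229 and 2624 (-0.88, adjusted p = 0.00518). The 24-hour libraries share the 12-hour libraries with the main comparison and held 4732781 to 5709443 reads.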

How the data were processed

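Libraries were made by the authors with a stranded QuantSeq 3′ kit primed with oligo(dT). Per the labels and the submitters' processing notes, reads were checked with FastQC 0.11.7, aligned to GRCm38 with TopHat2 2.0.10 (SAMtools 0.1.19; Bowtie 1.0.0), and counted per gene with HTSeq 0.6.1. The deposited values are a signal, the HTSeq counts divided by 1 size factor per library. Within a tolerance of 0.01 read, 100% of values above 0 were whole multiples of 1 read in 23 of 24 libraries, so reads were recovered, and edgeR 4.0.16 and DESeq2 1.42.0 were run on them as alternatives. Reads carry no molecular identifiers.

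The table holds 54658 genes. Genes whose mean value in the libraries compared reached 10 were tested on log2(value + 1) with limma 3.58.1 (trend, R 4.3.3), with the embryo as a block and Benjamini-Hochberg adjustment at 0.05. Cortex and culture with the same number in the labels were taken as a pair from 1 embryo. Deviations from the group means correlated at 0.186, 0.0536 and -0.111 for the pairs of embryos 3, 4 and 5. Unlike numbers gave -0.206 to 0.154. Culture 4 correlated more with cortex 5 (0.102) than with its own cortex, and culture 5 more with cortex 4 (0.154). Only for embryo 3 was the matched value the highest. The scripts were tested on simulated data. Named genes were the 10 with the smallest p in each direction without overlap, the 5 with the largest fold in each direction and a mean of at least 100 in a group, the first 2 tested members of each list with up to 2 higher and 2 lower members of the largest fold, and those of the interaction, leaving out genes without a proper symbol. The members and lists were chosen with earlier results of these data known. Counting intervals are exact at 95%, and a gene without reads was set at 3 reads per library. Other pseudocounts, filters, scalings, thresholds, fits without the block, 18 libraries in one fit and fits without each embryo were tried. Libraries at E11.5 were not used here, and some members of the lists are counted but not reported here by name.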

Additional observations from a re-analysis of the deposited data

Results flagged for a closer look

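The response to 12 hours of culture differed between control and *Cep135*(Δ8/Δ8) embryos for 3 genes, by a test of the difference itself (limma, embryo as a block, adjusted p = 0.0139 for each). *Alb*, the albumin gene of liver, read 0, 319 and 289 in the control cortices and 1.57, 296 and 379 in the control cultures, and 0, 0 and 0 in the mutant cortices and 107, 57.9 and 206 in the mutant cultures. The control response was lower than the mutant response by a log2 difference of -6.23 (standard error 0.76). *Serpina1e*, an antitrypsin gene of liver, read 0, 176 and 220 and then 0, 410 and 158 in controls, and 0, 0 and 0 and then 152, 44.2 and 235 in mutants, with a log2 difference of -6.63 (standard error 0.87). *Serpina1e* has near-identical paralogs with which it may share reads. For both genes, the mutant cortices were all at 0 and control embryo 3 was at or near 0 in both libraries, so the fitted differences depend on the pseudocount and are no bound. *Rn7sk* read 29.4, 14.52 and 17.4 in the control cortices and 120, 155 and 88.5 in the mutant cortices, which do not overlap, and 2500, 2541 and 1461 and 2345, 3539 and 1544 in the cultures, which do. Its response was larger in controls by a log2 difference of 2.38 (standard error 0.30). None of the 3 passed with a pseudocount of 0.1 or with no block for the embryo.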

How the results depend on the processing

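No named gene that passed changed its direction under any setting run. The count of genes that rose or fell in controls moved with an adjusted p under 0.1 (1367 and 1496), for lower genes without a filter (1496) or with a minimum mean of 50 (550), with 18 libraries in one fit (1623 and 1575), and between 267 and 2133 higher and 444 and 2167 lower when 1 embryo was left out. With no replicate block 1060 rose and 1109 fell, and other scalings, edgeR and DESeq2 stayed within 1.5 times. In mutants the counts were 540 and 679 with no replicate block, 1308 higher at an adjusted p under 0.1, and 340 to 1367 higher and 512 to 1695 lower without 1 embryo. For the genotype difference they were 0 and 0 with no block or a pseudocount of 0.1, 1 lower with a minimum mean of 50, 4 lower in edgeR, 4 higher and 15 lower in DESeq2, 0 lower with 18 libraries, and 0 to 114 higher and 0 to 163 lower without 1 embryo. From 12 to 24 hours they were 1 and 1 with no block, 38 and 58 with no filter, 8 higher with a pseudocount of 0.1, 9 higher with median-of-ratios or quantile scaling, 36 lower in edgeR, and 5 to 184 higher and 14 to 82 lower without 1 embryo. Without embryo 5, 114 and 163 genes passed for the genotype difference, and without embryo 3, 184 rose from 12 to 24 hours. The causes were not tested.

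Values that changed sign belong to genes that did not pass. With 1 embryo left out, the log2 fold change ran from -0.39 to 0.47 for *Actg1* (the former, without embryo 5, passed), -1.72 to 0.094 for *Apoa1*, -0.232 to 0.095 for *Bcl11b* (0.069 without embryo 3), -0.745 to 0.405 for *Hmox1*, -0.0209 to 0.104 for *Hspa5*, -0.0721 to 0.443 for *Mcm3* (-0.0371 without embryo 4), -0.21 to 0.189 for *mt-Atp8*, -1.11 to 0.124 for *Rpl10*, -0.237 to 0.606 for *Serpina1e* and -0.484 to 0.317 for *Slc2a3*. Quantile normalization turned *Hspa5* (-0.0904), *Hsph1* (-0.0274) and *Slc2a3* (0.0474), and scaling to the total without *Gm42418* and mitochondrial genes turned *Hspa5* (-0.0506). Depth limits genes with few reads.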
